A study of Mus musculus with 70 samples.

Results

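KPC.2 is a mouse pancreatic cancer cell line, and the libraries described here are its cells kept for 48 h with interferon gamma (IFNg, 100 ng per mL) or with interferon beta (IFNb, 1000 activity units per mL). Both groups held 3 libraries, chosen by the line and the cytokine in their labels, so that 6 of the 70 libraries of the series carry the comparison, and all genes were compared: 16147 of 35197 passed a filter on low counts and were tested. Unstimulated KPC.2 cells (NS, 3 libraries) give the level without added cytokine. The labels place the line on a C57BL/6 background and list no driver alleles, and whether it is 1 clone is not given in the sources used here. The cells grew in DMEM with serum. The other 7 mouse cancer lines of the series got the same treatments: the pancreatic line Panc02.3, the melanoma lines B16.1 and YUMMER1.7, the colorectal lines CT26.2 and MC38.7, the lung line LLC and the renal line Renca, of which CT26.2 and Renca are BALB/c and the others C57BL/6. Nothing in the labels says that the 3 libraries of a group came from different dishes, so p-values cover only how far libraries of a group scatter, which could be technical scatter alone. The doses are in different units, so the comparison is between these doses at 48 h.

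Both cytokines signal through receptor-bound JAK kinases. IFNb binds the IFNAR receptor and mainly acts through a complex that holds STAT2 and IRF9 and binds interferon-stimulated response elements (ISRE). IFNg binds the IFNGR receptor and mainly acts through gamma-activated sites (GAS), and it raises the factor IRF1 and through it the class II transactivator CIITA.

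KPC.2 libraries held between 668355 counts (IFNb replicate 3) and 8854526 counts (IFNg replicate 3), with group sums of 8749483 for IFNb, 23300851 for IFNg and 18233620 for NS. Mitochondrially encoded genes took 2.31 to 2.88% of the counts with IFNg, 2.92 to 3.03% with IFNb and 3.15 to 3.79% in NS, and their part in the results was not tested; none of the 13 differed between the cytokines. Of the labelled cell type, the keratins Krt8, Krt18 and Krt19 and the adhesion gene Cdh1 were abundant in both groups (Cdh1 at 915 CPM with IFNb and 921 CPM with IFNg, in counts per 1000000), whereas the epithelial marker Epcam had 23 counts with IFNb and 27 with IFNg. The listed epithelial genes Esrp1 (1 and 1 counts), Grhl2 (3 and 15) and Cftr (6 and 17) were low as well. Some mesenchymal markers were present too, with Vim at 2070 CPM with IFNb and 3218 with IFNg, Cdh2 at 102 and 81.3, and Zeb1 at 68.6 and 66.0. Others were near 0, as Fap with 5 counts in each group and Pdgfrb with 2 and 1. Among the listed acinar and islet markers, the pancreatic factor gene Pdx1 was at 53.8 CPM with IFNb and 38.8 CPM with IFNg. Ptf1a, Cpa1, Ctrb1, Pnlip, Ins1, Ins2, Gcg and Sst were at 0. The acinar elastase gene Cela1 had 58 counts with IFNb and 79 with IFNg (6.87 and 3.72 CPM), and Cela2a, Prss2, Amy2a5 and Nkx6-1 had at most 3 in either group. The leukocyte genes Cd3e and Adgre1 were at 0, Ptprc had 1 count with IFNb and 2 with IFNg, and summed levels of the listed leukocyte markers were 130.8 to 142.5 CPM with IFNb and 121 to 129 CPM with IFNg, mostly from Cd14 (134 and 122 CPM). In such bulk RNA, fewer cells of a kind and less RNA per cell cannot be told apart.

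The 2 cytokines separated 776 genes by at least 2-fold (4.81% of those tested). With IFNg, 492 were higher (3.05%), among them genes of antigen presentation, chemokines of activated T cells and large GTPases. With IFNb, 284 were higher (1.76%), among them antiviral effectors and the interferon factor gene Irf7. A gene counts as called at an adjusted p under 0.05 (quasi-likelihood test of edgeR, Benjamini-Hochberg adjustment, here and throughout) and a difference of at least 2-fold. Without the fold, 1754 genes (10.9%) were higher with IFNg and 1483 (9.18%) with IFNb, and members of gene lists below are counted at this adjusted p alone. Log2 differences are given as IFNg minus IFNb with the standard error (SE) of the fit, and levels are in CPM scaled by TMM, with means ± SD taken over the 3 libraries of a group. CPM is not divided by gene length, so levels are compared between groups and not between genes. Without IFNb replicate 3, the shallowest library, 469 genes were higher with IFNg and 289 with IFNb. The division between the directions depends on the test: limma-voom called 497 higher with IFNg and 787 higher with IFNb, and 492 and 290 over the 13131 genes with at least 20 counts in the 6 libraries, a limit chosen after seeing the data.

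The levels against unstimulated cells differed between the 2 sets. The 492 genes had a median log2 difference of 2.24 for IFNg against NS and of 0.04 for IFNb against NS. The 284 genes had a median of −1.35 for IFNg against NS and of 0.18 for IFNb against NS, so that most of this set was lower with IFNg than without cytokine rather than high with IFNb. Over all genes tested, IFNg raised 689 (4.27%) and lowered 435 (2.69%) against NS, while IFNb raised 201 (1.24%) and lowered 17 (0.105%). These comparisons share libraries with each other and with the one between cytokines, so their values are set side by side only. Among the 492 genes, 102 had 3 or fewer counts over the IFNb group, and among the 284, 39 had 3 or fewer over the IFNg group. The 3 IFNg and 3 IFNb libraries did not overlap for 478 of the 492 and 231 of the 284 genes, and for 5267 genes in all.

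**Figure D1:**
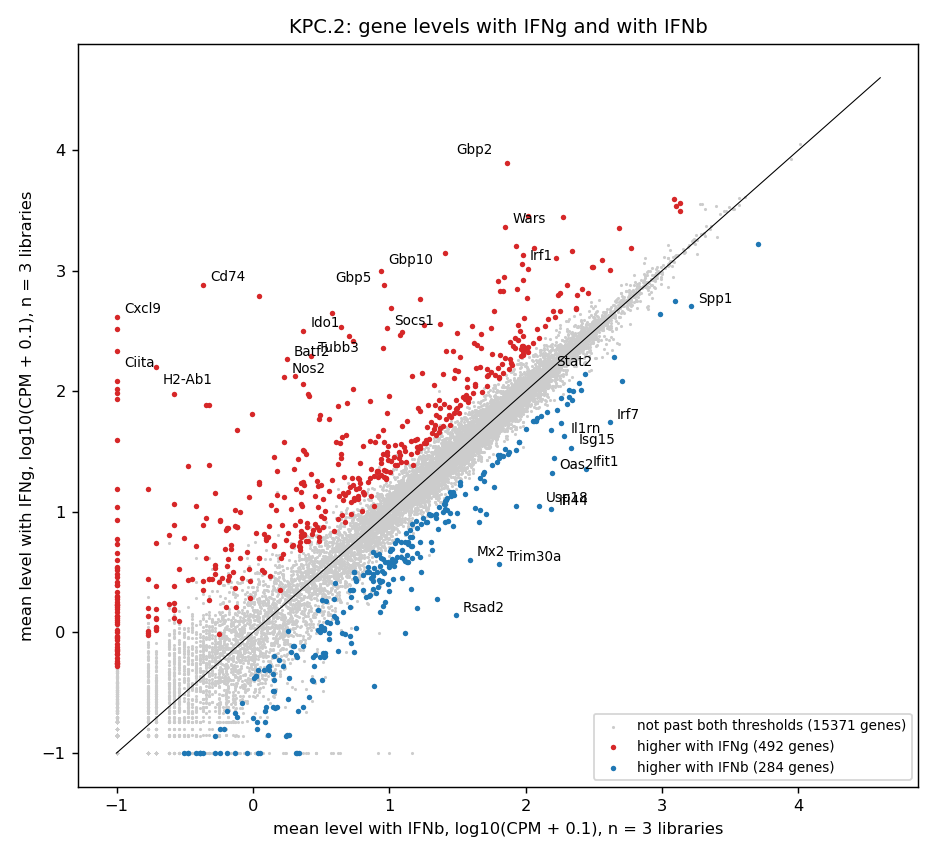
Mean level with IFNb (x axis) against mean level with IFNg (y axis) in KPC.2, both as log10(CPM + 0.1), 1 point per gene tested. Red points are the 492 genes called higher with IFNg, blue the 284 called higher with IFNb and grey all others; the column of red points at the left edge holds genes with few or no counts with IFNb.

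Promoters are shown first for genes from both directions of the comparison, chosen because GAS or ISRE letters can be read in them. They are from RefSeq, GRCm38.p6, in the gene's own direction, and capitals mark a GAS match (TTCNNNGAA) or a match to the ISRE core (GAAA, any 2 bases, GAAA, which reads TTTC, any 2 bases, TTTC where it lies on the other strand). The first 4 belong to genes higher with IFNg and hold GAS but no ISRE core in the stretch printed: the factor genes Irf1 (chr11:53769884-53769983, + strand) and Irf8 (chr8:120736158-120736257, +), the adhesion gene Icam1 (chr9:21015840-21015939, +) and the protease inhibitor gene Serpina3f (chr12:104214374-104214473, +).
Irf1: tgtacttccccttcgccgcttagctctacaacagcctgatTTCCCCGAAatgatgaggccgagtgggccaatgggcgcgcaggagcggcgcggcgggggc
Irf8: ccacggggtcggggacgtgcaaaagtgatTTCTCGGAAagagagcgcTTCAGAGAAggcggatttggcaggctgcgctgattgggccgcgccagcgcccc
Icam1: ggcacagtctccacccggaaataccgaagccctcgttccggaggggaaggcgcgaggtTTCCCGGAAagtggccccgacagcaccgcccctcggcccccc
Serpina3f: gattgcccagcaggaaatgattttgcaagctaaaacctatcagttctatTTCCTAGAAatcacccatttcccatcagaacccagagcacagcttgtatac
The GAS starts 90 bases before the transcript start in Irf1 and 42 before it in Icam1.

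Both GTPase genes printed next were also higher with IFNg and hold an ISRE core, with a GAS in Gbp5 (chr3:142496754-142496903, +) and none in the stretch of Gbp2 (chr3:142620553-142620652, +).
Gbp5: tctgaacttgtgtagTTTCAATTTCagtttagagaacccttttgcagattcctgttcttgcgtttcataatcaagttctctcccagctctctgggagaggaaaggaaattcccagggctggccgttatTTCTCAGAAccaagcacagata
Gbp2: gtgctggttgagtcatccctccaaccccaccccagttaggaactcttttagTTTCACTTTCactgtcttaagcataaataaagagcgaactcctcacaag
The last 4 belong to antiviral genes higher with IFNb: Isg15 (chr4:156200849-156200948, − strand), with 3 overlapping ISRE cores, Ifit1 (chr19:34640759-34640858, +), with 2, Rsad2 (chr12:26456523-26456622, −), with 1, and Oas1a (chr5:120907526-120907645, −), with 2 overlapping cores and a GAS.
Isg15: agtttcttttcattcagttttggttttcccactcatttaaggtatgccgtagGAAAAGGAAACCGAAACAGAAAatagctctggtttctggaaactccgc
Ifit1: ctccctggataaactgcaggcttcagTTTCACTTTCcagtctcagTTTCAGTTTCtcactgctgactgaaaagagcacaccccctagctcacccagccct
Rsad2: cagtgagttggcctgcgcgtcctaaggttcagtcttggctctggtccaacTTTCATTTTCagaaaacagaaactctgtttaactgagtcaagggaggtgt
Oas1a: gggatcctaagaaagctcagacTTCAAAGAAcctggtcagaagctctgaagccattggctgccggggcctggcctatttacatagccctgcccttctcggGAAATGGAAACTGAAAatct

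Over windows of 250 bases before to 50 after the start, 334 of the 492 genes higher with IFNg matched a RefSeq promoter by symbol, with 431 promoters, of which 12.1% held a GAS and 9.51% an ISRE core on either strand. Of the 284 genes higher with IFNb, 192 matched with 240 promoters, of which 7.08% held a GAS and 11.2% an ISRE core. Over all genes tested (14705 promoters) the shares were 7.11% and 3.22%. The GAS share thus lay above that of all genes only in the IFNg set, and the share with an ISRE core lay above it in both. These are descriptions without a test, and a match is a run of letters, not a bound site. Many strongly separated genes held neither match in this window, such as Ubd, Tubb3 and Cxcl9, higher with IFNg, and Ifi44, higher with IFNb. Socs1, higher with IFNg, held ISRE cores and no GAS.

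Genes of MHC class II, which presents peptides to CD4+ T cells, were on with IFNg and at or near 0 with IFNb. Ciita, the transactivator that switches on the class II genes (chr16:10480014-10531064, GRCm38.p6), had levels of 217, 219 and 209.7 CPM in the 3 IFNg libraries, 0 in all 3 IFNb libraries and 0, 0.142 and 0.235 CPM in NS. Every IFNg library was high and every other library at or near 0, which puts Ciita at least 641-fold higher with IFNg against a floor of 3 counts over the IFNb group. Cd74, the invariant chain that holds class II molecules until a peptide is loaded, was at 798, 796 and 708 CPM with IFNg and at 0.561, 0.428 and 0 CPM with IFNb. Its NS levels were 1.53, 0.567 and 0.938 CPM, so the IFNg libraries stood apart from all 6 others, and the log2 difference between cytokines was 10.71 ± 0.24 (SE, adjusted p = 2.5e-41).

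The chains of the class II molecule itself followed the same order. H2-Aa was at 120.2, 138 and 107 CPM with IFNg and H2-Eb1 at 104, 115 and 94.4 CPM, with no count in any IFNb or NS library, so that they were at least 358-fold and 307-fold higher with IFNg. H2-Ab1 was at 162, 168 and 144 CPM with IFNg and had 1 count over the IFNb group, a ratio of 1403 with a 95% counting interval of 252 to 55438. H2-DMa, which loads the peptide, was at 76.4 ± 1.34 CPM with IFNg and 0.379 ± 0.436 with IFNb (7.07 ± 0.30, adjusted p = 4.2e-28). In all, 9 of the 14 class II genes tested were higher with IFNg and none with IFNb (8 without IFNb replicate 1, where Rfx5 at 0.40 did not pass), with a median log2 difference of 5.84, or 4.63 with near-empty groups set at their floor; over all genes tested the median was 0. The promoter-binding factor gene Rfx5 differed by only 0.54 on the log2 scale, and Ctss, Rfxap, Rfxank, Ifi30 and H2-Oa did not pass. Against NS, 10 of the 14 rose with IFNg and none with IFNb, beside 13.8% and 2.52% of all genes that rose and 15.8% and 1.93% that fell.

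MHC class I, which presents peptides to CD8+ T cells, was raised by both cytokines and further by IFNg. H2-K1, a classical heavy chain, was at 265, 268 and 268 CPM in NS, at 1232, 1314 and 1139 with IFNb and at 3904, 4006 and 3819 with IFNg. The 3 groups did not overlap, and IFNg exceeded IFNb by 1.66 ± 0.08 (adjusted p = 6.0e-25). Tap1, a subunit of the peptide transporter, was at 0.695, 0.567 and 0.938 CPM in NS, 99.6, 106 and 80.1 with IFNb and 860.1, 833 and 813 with IFNg (3.07 ± 0.09, adjusted p = 1.2e-36). The immunoproteasome subunits Psmb8 and Psmb9, which cut peptides for class I, differed most, by 4.57 ± 0.14 and 4.51 ± 0.14. B2m, the light chain, differed by 1.19 ± 0.06 and Nlrc5, the class I transactivator, by 2.36 ± 0.11. Of 17 genes of class I and its peptide supply, 16 were higher with IFNg (median 1.66), and the exception was the chaperone gene Canx (0.15, adjusted p = 0.11); with the KPC.2 libraries alone, Canx passed as well. Against NS, 16 of the 17 rose with IFNg (median 3.58) and 14 with IFNb (median 1.27). Of 16 nonclassical class I genes, 9 were higher with IFNg and none with IFNb (median 1.87, or 1.41 at the floor), led by H2-Q7 (4.21) and H2-Q6 (3.98), whose estimated counts may be divided between near-identical copies.

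**Figure D2:**
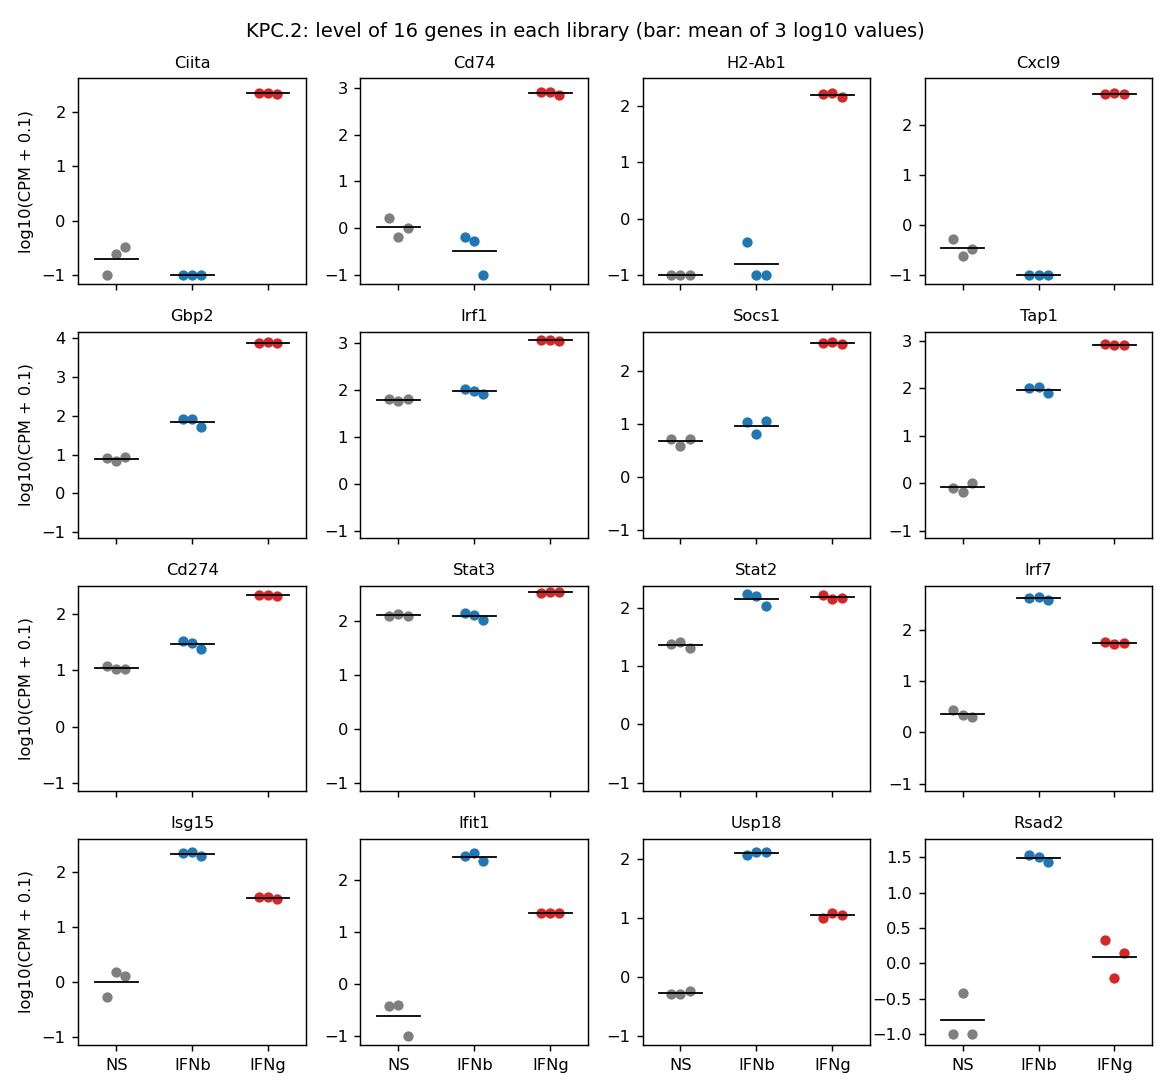
Levels of 16 genes in every KPC.2 library, as log10(CPM + 0.1), for NS, IFNb and IFNg; points are libraries and bars the mean of the 3 log values. Ciita, Cd74, H2-Ab1 and Cxcl9 are near the floor in NS and IFNb and high with IFNg only, Tap1 and Cd274 climb from NS through IFNb to IFNg, Stat2 overlaps between the cytokines, and Irf7, Isg15, Ifit1, Usp18 and Rsad2 are highest with IFNb.

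The 3 chemokines that draw T cells through the receptor CXCR3 were all higher with IFNg, but not alike. Cxcl9 was at 400.1, 433 and 405 CPM with IFNg and at 0 in all 3 IFNb libraries, with 0.142 to 0.417 CPM in NS, and was at least 1225-fold higher with IFNg. Cxcl10 was at 451, 493 and 444 CPM with IFNg, 56.4, 62.9 and 56.2 with IFNb and at most 0.973 in NS (2.96 ± 0.14, adjusted p = 2.0e-26). Cxcl11 was at 260.3 ± 25.9 CPM with IFNg and 5.32 ± 2.39 with IFNb (5.40 ± 0.21). Cxcl9 was therefore on with 1 cytokine alone at this depth, while the other 2 were above NS with both. Of 22 other chemokine and cytokine genes, 6 were higher with IFNg, among them Cx3cl1 (1.77 ± 0.09), Ccl2 (1.48 ± 0.16) and the T and NK cell growth factor Il15 (1.48 ± 0.26). Ccl9 alone was higher with IFNb (−1.90 ± 0.34), at 13.7 ± 1.85 CPM with IFNb, 3.75 ± 0.32 with IFNg and 13.0 ± 1.36 in NS, so that it fell with IFNg by 1.79 against NS. Without IFNb replicate 3, 2 of the list were higher with IFNb.

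Most GTPases that attack intracellular pathogens were higher with IFNg than with IFNb. Gbp2, a guanylate-binding protein that coats the vacuoles of bacteria and parasites, was at 7.93, 6.81 and 8.45 CPM in NS, 81.9, 83.7 and 52.0 with IFNb and 7684, 8199.7 and 7669 with IFNg. No groups overlapped, and the cytokines differed by 6.64 ± 0.10 (adjusted p = 7.3e-51). Gbp5, which promotes inflammasome assembly, was at 9.10 ± 0.884 CPM with IFNb and 757 ± 38.6 with IFNg (6.35 ± 0.13). Of 11 guanylate-binding protein genes, 10 were higher with IFNg, by 1.58 for Gbp9 to 6.75 for Gbp10, and the list's median was 5.02. The exception was Gbp2b, which did not pass. Against NS, 10 of the 11 rose with IFNg (median 9.05) and 8 with IFNb (median 3.36). Of 11 immunity-related GTPase genes, 10 were higher with IFNg (median 3.07), with Tgtp2 (5.47 ± 0.21), Iigp1 (4.75) and Igtp (4.26 ± 0.08) ahead of Irgm1 (1.77). The exception was 9930111J21Rik1 (−0.05). The count was 9 by DESeq2 and without any 1 library except IFNb replicate 1. All 11 immunity-related GTPase genes rose with IFNb against NS as well. Gbp6 and Gbp10, and Tgtp1 and Tgtp2, are near-identical pairs whose values may be divided.

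Interferon regulatory factors were found on both sides. Irf1, an early interferon target, was at 63.3, 57.1 and 63.3 CPM in NS, 103, 96.1 and 82.9 with IFNb and 1163, 1164 and 1092 with IFNg, with no overlap (3.56 ± 0.07, adjusted p = 2.8e-44). Irf8, a factor best known from blood cells, was at 97.9, 98.1 and 88.5 CPM with IFNg and had 2 counts over the IFNb group, a ratio of 422 with an interval of 117 to 3489.6. Batf2 differed by 6.67 ± 0.19. Irf7, which amplifies type I interferon, went the other way, at 412, 443 and 383 CPM with IFNb against 57.3, 53.9 and 54.1 with IFNg and 1.88 to 2.64 in NS (−2.92 ± 0.10, adjusted p = 1.7e-33). Every IFNb library exceeded every IFNg library for Irf7, and both exceeded NS.

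The STAT genes reported here differed less. Stat2, the partner used by the type I receptor, was at 173, 159 and 109.5 CPM with IFNb and 166, 143 and 146 with IFNg, from 20.4 to 26.1 in NS; the cytokine groups overlapped and no difference was found (−0.04 ± 0.10, adjusted p = 0.86). Irf9, a partner of STAT2, was higher with IFNb by a small margin (−0.59 ± 0.09), and Stat3 was higher with IFNg (1.39 ± 0.07) while IFNb left it at 121 ± 18.1 CPM against 125 ± 5.11 in NS. Among the receptor genes, Ifnar1 was equal within error (0.00 ± 0.07), Ifnar2 was higher with IFNg (0.66 ± 0.10), and Ifngr1 was higher with IFNb (−0.37 ± 0.07), having fallen with IFNg from 332 ± 0.619 CPM in NS to 233 ± 7.08. In all, 9 of 17 receptor, kinase, STAT and IRF genes were higher with IFNg and 3 with IFNb.

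A pair of known brakes on interferon signalling, Socs1 and Usp18, differed strongly and in opposite directions. Socs1, which blocks JAK kinases and is a main brake on IFNg signalling, was at 338, 342 and 319.5 CPM with IFNg, 10.7, 6.42 and 11.2 with IFNb and 3.69 to 5.16 in NS (5.28 ± 0.15, adjusted p = 2.9e-36). Usp18, which removes ISG15 from proteins and is a main brake at the type I receptor, was at 115, 129 and 131 CPM with IFNb, 10.0, 12.2 and 11 with IFNg and 0.417 to 0.469 in NS (−3.49 ± 0.14, adjusted p = 7.7e-30). The groups overlapped for neither gene, and the order of the cytokines was opposite. Socs3 was higher with IFNg (1.71 ± 0.11). Of the 16 listed inhibitors of JAK-STAT signalling, which did not include Usp18, 4 were higher with IFNg and 2 with IFNb (Socs5 and Socs6; Socs5 did not pass without IFNb replicate 2, at −0.21), and the median was 0.12.

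Antiviral effectors mostly favoured IFNb. Rsad2, which makes a nucleotide that stops viral polymerases, was at 33.7, 31.7 and 26.7 CPM with IFNb, 2.03, 0.515 and 1.31 with IFNg and at most 0.284 in NS (−4.55 ± 0.35, adjusted p = 2.1e-16). Ifit1, which binds viral RNA caps, was at 282, 321 and 226 CPM with IFNb, 22.5 in each IFNg library and at most 0.284 in NS (−3.67 ± 0.12, adjusted p = 2.8e-33). Isg15, a ubiquitin-like modifier, was at 224, 231 and 192 CPM with IFNb, 35.0, 34.7 and 32.2 with IFNg and 0.417 to 1.42 in NS (−2.70 ± 0.12, adjusted p = 2.2e-27). In these 3 the groups did not overlap and IFNg stood between NS and IFNb.

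Of the 47 antiviral genes, 34 were higher with IFNb and 7 with IFNg, with a median of −0.99. The same count without IFNb replicate 3 was 34 and 7. Among the strongest were Ifi44 (−3.90 ± 0.13), Mx2, a dynamin-like antiviral GTPase (−3.44 ± 0.23), and the 2-5A synthetases, which activate RNase L: Oas1a (−3.01 ± 0.15) and Oas2 (−2.95 ± 0.15). The RNA editing enzyme Adar differed by −0.98 ± 0.06, from 72.9 ± 5.81 CPM in NS to 301 ± 15.3 with IFNb and 151 ± 7.14 with IFNg. The 7 higher with IFNg were Phf11b (1.22), Parp14 (1.17 ± 0.08), Ifit1bl1 (1.05), Dtx3l (1.02 ± 0.08), Parp9 (0.92), Ifi27 (0.81) and Apobec3 (0.59 ± 0.08), and Phf11b did not pass without IFNb replicate 2 (1.06). Parp9, Parp14 and Dtx3l, an ADP-ribosylation group, were raised strongly by both, as in Parp14 at 10.3 ± 1.10 CPM in NS, 289 ± 1.96 with IFNb and 652 ± 11.2 with IFNg. Ifit2, unlike Ifit1 and Ifit3, did not separate the cytokines (−0.29 ± 0.11, adjusted p = 0.061), though it passed with the KPC.2 libraries alone (−0.29) and without IFNg replicate 2 (−0.36). Against NS, 44 of the 47 rose with each cytokine, with a median of 3.84 for IFNg and 5.35 for IFNb, so the difference lay in how far they rose rather than whether they did.

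Sensors of viral RNA and DNA were found on both sides. All 3 RNA helicases of the RIG-I family were higher with IFNb: Dhx58 by −2.48 ± 0.14, Ddx58 (RIG-I) by −1.23 ± 0.07 and Ifih1 (MDA5) by −0.93. Ddx58 was at 208 ± 2.86 CPM with IFNb, 88.9 ± 1.96 with IFNg and 19.0 ± 0.101 in NS. Zbp1, which senses Z-form nucleic acid, was higher with IFNg, at 257, 258 and 238 CPM against 43.5, 44.3 and 36.5 with IFNb and 0 in NS (2.54 ± 0.11), as was the nucleotide hydrolase Samhd1 (2.73 ± 0.06). Trim30a, a restraint on TLR signalling, was at 71.3, 78.7 and 42.1 CPM with IFNb and 2.80, 4.81 and 3.10 with IFNg (−4.36 ± 0.19). Of 25 sensing genes, 6 were higher with IFNg and 7 with IFNb (median −0.09).

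**Figure D3:**
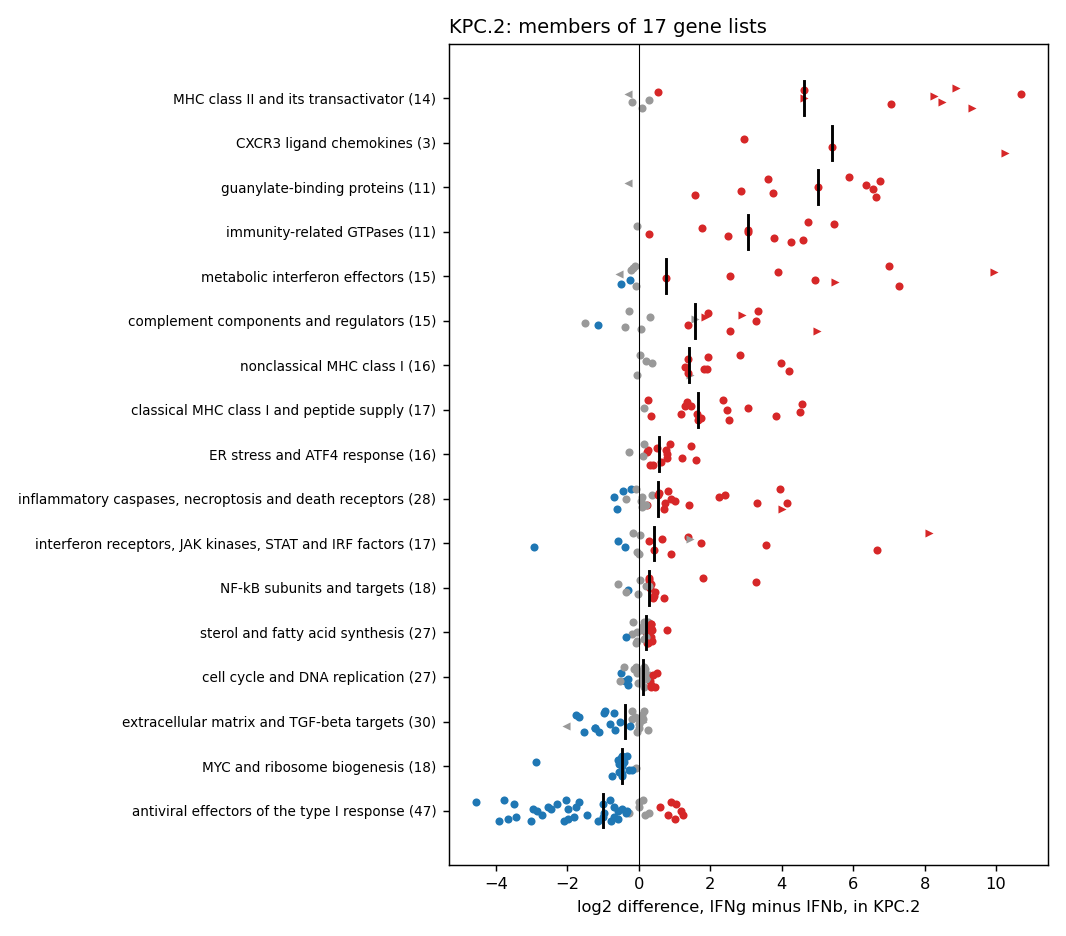
Log2 difference between cytokines (IFNg minus IFNb) for the members of 17 gene lists in KPC.2. Dots are genes, red where higher with IFNg and blue where higher with IFNb at an adjusted p under 0.05, grey otherwise; triangles stand at the floor where a group had 3 or fewer counts, and bars are medians, which lie at 5.02 for guanylate-binding proteins and −0.99 for antiviral effectors.

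Several IFNg genes act on the medium around the cell. Ido1, which breaks down tryptophan, was at 308, 329.5 and 315 CPM with IFNg, 1.96, 1.93 and 2.81 with IFNb and 1.67 to 2.35 in NS; IFNb against NS gave 0.09 on the log2 scale, and IFNg exceeded IFNb by 7.29 ± 0.17 (adjusted p = 1.6e-30). Wars, which charges tRNA with tryptophan, was at 2309.8, 2396 and 2248 CPM with IFNg, 76.6, 82.8 and 53.4 with IFNb and 71.3 to 77.7 in NS (4.92 ± 0.12, adjusted p = 4.0e-39). Nos2, which makes nitric oxide, was at 123, 143 and 128 CPM with IFNg and at 1.96, 0 and 2.81 with IFNb (7.0 ± 0.48, adjusted p = 1.2e-17). These 3 were high in IFNg libraries alone. Apol6, an apolipoprotein L family member, had no count with IFNb and 350.4, 318 and 315 CPM with IFNg, at least 980-fold higher. Of 15 metabolic effectors, 8 were higher with IFNg (median 0.75) and 2 with IFNb (Gch1 and Apol9a, which did not pass without IFNb replicate 2, at −0.42 and −0.22).

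Genes met by immune cells at the tumour cell surface were mixed. Cd274, which encodes the checkpoint ligand PD-L1, was at 217, 214 and 211 CPM with IFNg, 33.1, 30.0 and 23.9 with IFNb and 10.5 to 11.5 in NS (2.80 ± 0.10, adjusted p = 6.9e-31). Icam1, an adhesion ligand for T cells, was at 676, 689 and 660.0 CPM with IFNg, 75.5, 65.9 and 63.2 with IFNb and 86.6 to 95 in NS (3.28 ± 0.10). Cd274 was thus above NS with both cytokines, and Icam1 with IFNg only. Of 19 checkpoint and evasion genes, 4 were higher with IFNg, among them Tnfrsf14 (3.53) and the don't-eat-me signal Cd47 (0.50 ± 0.06), and Lgals9 was higher with IFNb (−0.60 ± 0.06); the counts were 3 and 2 without IFNb replicate 1, 4 and 2 without IFNb replicate 3, 4 and 5 by limma-voom, and 4 and 4 by DESeq2 and with the KPC.2 libraries alone. Complement genes followed IFNg in 8 of 15: C1s1 was at 1035 ± 52.5 CPM with IFNg and 103 ± 4.99 with IFNb (3.34 ± 0.10), C4b differed by 3.29 ± 0.09 and C3 by 1.94 ± 0.08. The Ly6 family genes Ly6c1 (3.72 ± 0.09) and Ly6a (2.19) were higher with IFNg too.

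Death receptors and caspases were more often higher with IFNg. Fas was at 41.9, 46.9 and 40.2 CPM with IFNg, 5.33, 3.21 and 5.62 with IFNb and 3.99 to 6.67 in NS (3.31 ± 0.29, adjusted p = 2.8e-14). Tnfsf10, which encodes the death ligand TRAIL, was at 59.3 ± 0.977 CPM with IFNg and 3.49 ± 0.742 with IFNb (3.97 ± 0.23), and the inflammatory caspase genes Casp12 and Casp4 differed by 4.15 ± 0.18 and 2.41. Mlkl, the pore former of necroptosis, differed by 1.01, and the survival gene Bcl2 was higher with IFNb (−0.69 ± 0.10), at 41.0 ± 1.79 CPM with IFNg against 65.6 ± 5.34 in NS. Of 28 death genes, 15 were higher with IFNg and 4 with IFNb (median 0.45, or 0.54 at the floor). NF-kB subunits and targets were higher with IFNg in 10 of 18 with a median of 0.30, where Icam1 and Sod2 (1.80 ± 0.08) were the 2 past 2-fold. Without any 1 library the 10 became 8 or 9.

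Beside immune genes, several growth and stress lists separated the cytokines by small but repeated differences. Myc was at 227, 219 and 213 CPM with IFNb, 143, 125 and 126 with IFNg and 182 to 197 in NS, without overlap (−0.75 ± 0.07, adjusted p = 9.8e-14). Of 18 genes of MYC and ribosome biogenesis, 17 were higher with IFNb and none with IFNg (median −0.47), among them Nop56 (−0.57 ± 0.12), while Rrs1 did not pass (−0.06 ± 0.11). Over the alternatives that leave out 1 library the count was 14 to 17. Mycn was at 4.12 ± 1.27 CPM with IFNb, 0.597 ± 0.0893 with IFNg and 7.34 ± 0.749 in NS (−2.88 ± 0.53). Against NS, 12 of the 18 fell with IFNg and 1 rose with IFNb.

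Genes of ER stress and the ATF4 response, which unfolded protein or a shortage of amino acids switches on, were higher with IFNg in 13 of 16 (median 0.57, and 10 to 12 without 1 library). Trib3 was at 81.1, 81.4 and 72.5 CPM with IFNg, 25, 27.4 and 22.5 with IFNb and 14.8 to 15.6 in NS (1.59 ± 0.30, adjusted p = 2.8e-05), and Chac1 (1.45 ± 0.34) and Atf3 (1.22 ± 0.24) were also past 2-fold. Glycolysis and hypoxia genes were higher with IFNg in 9 of 23, led by Hk2, the first enzyme of glycolysis, at 414, 416 and 415 CPM against 177, 151 and 160.1 (1.35 ± 0.09). Sterol and fatty acid synthesis genes were higher with IFNg in 12 of 27 and lower in 1, with a median of only 0.20; without IFNb replicate 1 the 12 became 6. The largest of these was Acss2, which makes acetyl-CoA (0.78 ± 0.16). Cell cycle genes went both ways, higher with IFNg in 6 of 27 (22.2%) and with IFNb in 4 (14.8%), with a median of 0.11. Over all genes these shares were 10.9% and 9.18%. The 6 became 3 without IFNg replicate 3, and the 6 and 4 became 4 and 2 without IFNb replicate 2. Examples are the topoisomerase gene Top2a (0.52 ± 0.07) and the helicase gene Mcm6 (−0.50 ± 0.07). The cell cycle inhibitor Cdkn1a was higher with IFNg (1.42 ± 0.16). It is 1 of 7 among 18 CDK inhibitors and p53 targets that were (4 without IFNb replicate 2), beside 4 with IFNb.

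Matrix genes were higher with IFNb wherever they differed, in 13 of 30 (median −0.39; 10 to 14 without 1 library). Col12a1 was at 36.2, 32.1 and 25.3 CPM with IFNb, 8.90, 9.27 and 10.8 with IFNg and 27.8 to 38.1 in NS (−1.76 ± 0.20, adjusted p = 9.5e-11), Col5a1 differed by −1.23 ± 0.09, and the TGF-beta and YAP target Ccn2 by −0.94 ± 0.09. For Col12a1, IFNb and NS overlapped and IFNg lay below both; 12 of the 30 fell with IFNg against NS and 4 with IFNb. Of 18 epithelial and ductal genes, 13 did not pass, 2 were higher with IFNg (11.1%) and 3 with IFNb (16.7%), with a median of 0.02. Over all genes these shares were 10.9% and 9.18%. Spp1, a secreted phosphoprotein of ductal and tumour cells, was at 1526, 1708 and 1638 CPM with IFNb, 501, 511 and 509.6 with IFNg and 2069.6 to 2292 in NS (−1.68 ± 0.06). The ductal factor gene Sox9 differed by −1.31 ± 0.15. The keratin genes moved in both directions: Krt18 (1.40 ± 0.08) and Krt8 (0.87 ± 0.08) were higher with IFNg, and Krt7 (−0.64 ± 0.08) was higher with IFNb. The mesenchymal filament gene Vim was higher with IFNg (0.64 ± 0.07).

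Some of the largest differences belong to genes outside the gene lists counted here. Higher with IFNg were Ubd, a ubiquitin-like modifier, at 593, 667 and 597 CPM against 1.96, 1.07 and 0 (8.84 ± 0.15), and Apol10b (7.38 ± 0.30). Tubb3, a tubulin of neurons that some carcinomas make, was at 188, 206 and 194 CPM with IFNg, 3.09, 3.21 and 1.40 with IFNb and 5.63 to 6.67 in NS (6.02 ± 0.14, adjusted p = 4.0e-39), and Il12rb1, a cytokine receptor chain, differed by 5.72 ± 0.25. Tubb3 was high in the 3 IFNg libraries alone. Higher with IFNb were Megf10, a phagocytosis receptor gene, at 10.4, 15.8 and 12.6 CPM against 1.27, 0.687 and 0.715 with IFNg and 4.59 to 7.74 in NS (−3.86 ± 0.30), Ihh, a hedgehog ligand gene (−3.61 ± 0.86), and the mast cell protease gene Mcpt2 (−3.28 ± 0.65). Il1rn, the antagonist of interleukin 1, was at 194, 204 and 173 CPM with IFNb, 42.7, 44.5 and 39.9 with IFNg and 159.8 to 181 in NS (−2.19 ± 0.12, adjusted p = 2.0e-22). Of these 4, only Megf10 had every IFNb library above every NS library. Gabrp had no count with IFNg and 2.10 ± 0.873 CPM with IFNb, at least 14.0-fold higher, and Pax5 was at 3.37, 2.57 and 0 CPM with IFNb and 0 with IFNg and in NS, a gene that 1 of its 3 libraries did not show.

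The difference between the cytokines in KPC.2 was then set against that in the other 7 lines. The test for each gene was the KPC.2 difference minus the equally weighted mean of the other lines, in the same fit; 268 genes (1.66%) had a KPC.2 difference more positive by at least 2-fold and 125 (0.774%) more negative. At the adjusted p alone these were 9.35% and 6.23% of genes. Class I genes departed upward in 15 of 17, and MYC genes downward in 16 of 18. Antiviral genes departed downward in 30 of 47 and upward in 8, sterol genes upward in 22 of 27, cell cycle genes upward in 15 of 27 and downward in 3, and guanylate-binding protein genes upward in 6 of 11. By the medians of these lists, KPC.2 lay at the end of the lines only for MYC genes, at −0.47, with Panc02.3 at 1.74. Class II genes, not among these lists, also had their highest median in KPC.2 (5.84, then 2.81 in Renca), though only 3 of 14 departed upward. The sterol median was 0.20 in KPC.2, 0.33 in LLC and −1.76 in Panc02.3. The cell cycle median was 0.11 in KPC.2, 0.18 in LLC and −1.98 in B16.1.

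Cd74 had a KPC.2 difference that exceeded the mean of the other lines by 7.11 ± 0.94 (adjusted p = 3.9e-08), where the other lines ran from −0.08 in MC38.7 to 8.66 in Panc02.3. KPC.2 at 10.71 lay above all of them, though its difference from Panc02.3 alone was 2.05 ± 1.88 and did not pass (adjusted p = 0.43). For H2-DMa, KPC.2 at 7.07 lay above the highest other line (2.34 in Renca) and the departure was 5.90 ± 0.37. Wars departed by 3.66 ± 0.13, with the others between −0.08 in LLC and 3.37 in Panc02.3. Sema7a, a semaphorin, departed by 4.68 ± 0.54: it was at 59.1 ± 7.56 CPM with IFNg and 2.94 ± 1.42 with IFNb in KPC.2, while the other lines ran from −1.34 in B16.1 to 0.12 in LLC. Tubb3 departed by 5.27 ± 0.49, beyond the highest other line (3.82 in LLC). For Ciita, H2-Ab1, Cxcl9, Ido1 and Nos2 no departure passed, and some other lines had groups near 0 where the SE of the fit was large. By limma-voom, Ciita, H2-Ab1 and Cxcl9 did pass.

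**Figure D4:**
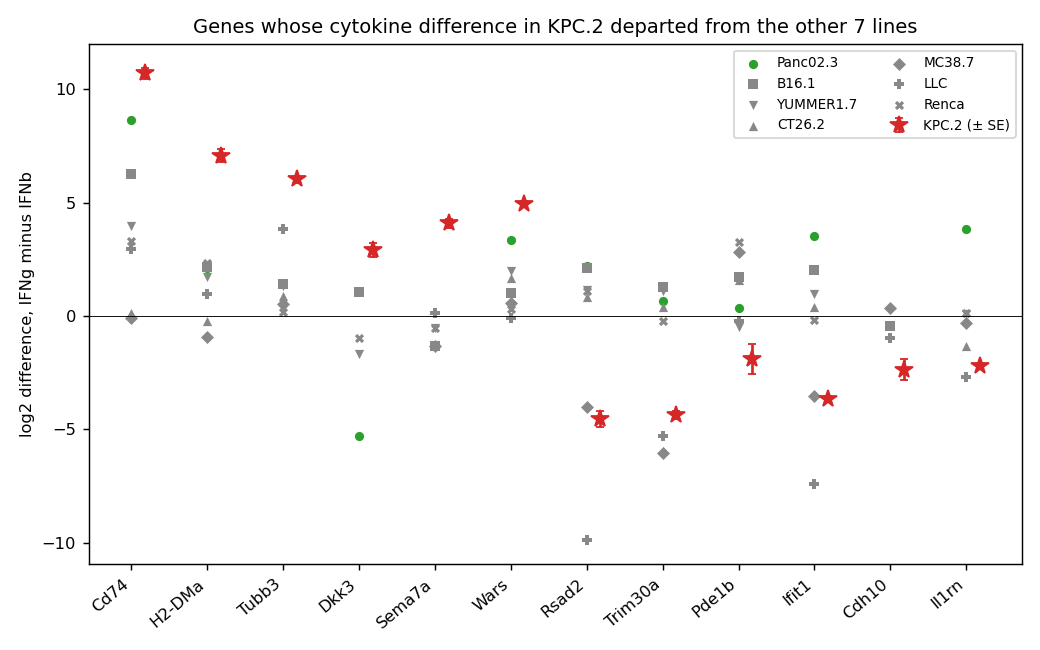
Log2 difference between cytokines (IFNg minus IFNb) in each line for 12 genes with large departures of KPC.2 from the mean of the other 7 lines. Red stars are KPC.2 with SE bars, green Panc02.3 and grey the other lines, and lines with 3 or fewer counts in both groups are not drawn. KPC.2 lies above every drawn line for Cd74, H2-DMa, Tubb3, Sema7a and Wars, and within the range of the others for Rsad2, Ifit1 and Trim30a.

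For the antiviral genes the lines fell to both sides of 0, and KPC.2 was not at the end. Rsad2 ran from −9.89 in LLC to 2.20 in Panc02.3 (departure of KPC.2 −3.61 ± 0.38), Ifit1 from −7.41 in LLC to 3.52 in Panc02.3 (−3.06 ± 0.13), and Trim30a from −6.04 in MC38.7 to 1.26 in B16.1 (−3.20 ± 0.20). Over the 47 antiviral genes, those higher with IFNb numbered 42 in LLC (median −2.86), 42 in MC38.7 (−2.55) and 34 in KPC.2. Renca had 12 in each direction. In B16.1 and YUMMER1.7, 40 of the 47 were higher with IFNg, and in CT26.2, 22 were. The shares of all genes past the same threshold differed between the lines, higher with IFNg and higher with IFNb in turn: 16.8% and 12.5% in LLC, 17.8% and 10.5% in MC38.7, 26% and 24.5% in B16.1, 9.09% and 7.73% in YUMMER1.7, 2.51% and 1.5% in CT26.2, and 5.25% and 4.19% in Renca. In LLC and MC38.7 the antiviral counts thus stood on a background tilted the other way.

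In Panc02.3, the other pancreatic line, the difference between the cytokines departed from that in KPC.2 by at least 2-fold at 20.2% of genes. Several lists pointed opposite ways in the 2 lines. Of the antiviral genes, 32 were higher with IFNg in Panc02.3 and 8 with IFNb (median 0.80, beside 22.6% and 30.4% of all its genes). By the test of the departure, the difference between cytokines was more negative in KPC.2 for 34 of 47 and more positive for 6 (beside 17.5% and 26.3% of all genes). Ifit1 averaged 70.8 CPM with IFNb and 807 with IFNg in Panc02.3, against 276 ± 47.6 and 22.5 ± 0.0158 in KPC.2. Mx2 averaged 7.94 and 159 CPM in Panc02.3 against 38.9 ± 9.70 and 3.88 ± 0.723. For these genes the better inducer was IFNg in 1 pancreatic line and IFNb in the other.

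MYC genes were higher with IFNg in 16 of 18 in Panc02.3 (median 1.74), and the difference between cytokines departed between the lines at 17 of 18. Myc itself averaged 117 CPM with IFNb and 473 with IFNg in Panc02.3. Sterol genes were higher with IFNb in all 27 there (median −1.76), and the difference between cytokines departed between the lines at 25 of 27. Matrix genes were higher with IFNb in both lines, in 22 of 30 in Panc02.3. Class II genes were more strongly separated in KPC.2 at 9 of 14, and Ciita averaged 2.45 CPM with IFNg in Panc02.3 against 215 ± 5.05 in KPC.2. Guanylate-binding protein genes were higher with IFNg in 10 of 11 in both lines, with medians of 5.02 and 5.26.

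**Figure D5:**
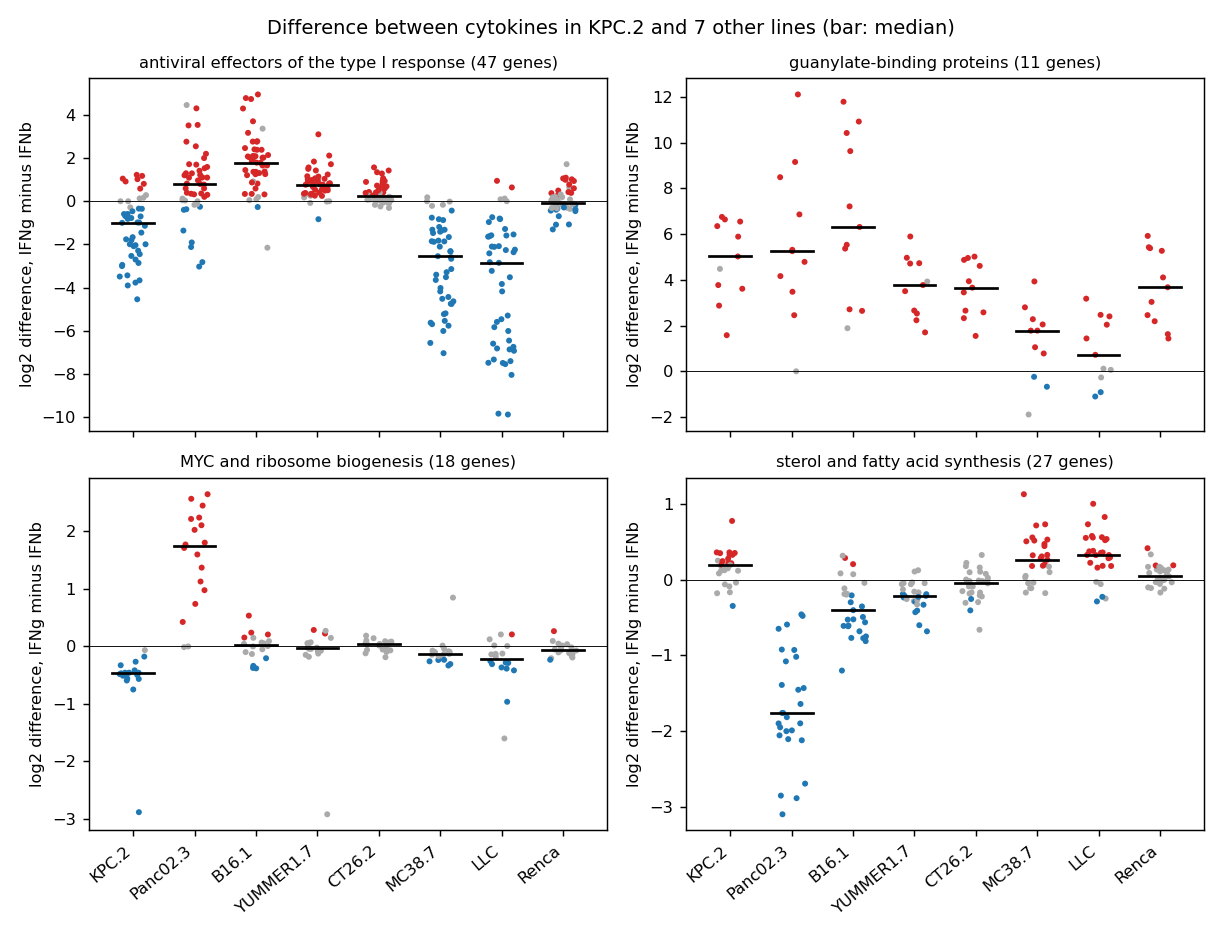
Log2 difference between cytokines (IFNg minus IFNb) for the members of 4 gene lists in the 8 lines, with bars at the median. For antiviral effectors the medians run from −2.86 in LLC through −0.99 in KPC.2 to 1.79 in B16.1; the medians of guanylate-binding proteins lie above 0 in every line, and MYC and sterol genes point opposite ways in KPC.2 and Panc02.3.

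The share of KPC.2 genes called alike elsewhere was higher for the IFNg set in 5 of the 7 lines, and for the IFNb set in LLC and MC38.7. Of the 492 genes, 49% were also called higher with IFNg in B16.1, 36% in YUMMER1.7, 29.1% in Panc02.3, 25.8% in Renca, 20.9% in CT26.2, 16.7% in LLC and 11.4% in MC38.7. Of the 284, 23.2% were also called higher with IFNb in Panc02.3 and in LLC, 18% in MC38.7 and at most 8.8% in the other 4 lines. Panc02.3 called 9.35% of the 492 and 10.6% of the 284 the opposite way, and B16.1 called 17.6% of the 284 so. The lines differed in how many genes they called at 2-fold in either direction: 14.2% in B16.1, 3.66% in YUMMER1.7, 20.5% in Panc02.3, 1.46% in Renca, 0.979% in CT26.2, 4.56% in LLC and 3.08% in MC38.7. These background shares join both directions. At the adjusted p alone, Panc02.3 was tilted to IFNb over all genes (22.6% higher with IFNg, 30.4% with IFNb) and the remaining lines to IFNg. The shares of the 492 and the 284 were not corrected for such a tilt.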

How the data were processed

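RNA of the 70 libraries was read by sequencing of a directional library kit. The deposited values are estimated counts per gene, whole numbers here, which the authors made with Trimmomatic 0.36 and kallisto on mm10 (GRCm38), per the submitters' processing notes; the transcript set and how transcripts were summed to genes are not given in the sources used here. From these, edgeR 4.0.16 in R 4.3.3 (filterByExpr, TMM, glmQLFit and glmQLFTest, 1 coefficient for each of the 24 groups of a line and a treatment, all 70 libraries) tested each contrast with Benjamini-Hochberg adjustment over 16147 genes, at an adjusted p under 0.05 and, for counts of genes, 2-fold. SE is the log2 value divided by the square root of F. A group at 0 was set to a floor of 3 counts over the group; floors and intervals cover counting error only. Named genes were those with the largest differences past the threshold in each direction, the largest departures from other lines, and the gene lists, for which all members are counted. Members and lists were chosen with earlier results of these data known. Replicate numbers did not pair the IFNb and IFNg libraries (r of same-numbered deviations 0.00675 to 0.0988). Promoters were read from RefSeq. On simulated counts 49 of 50 genes changed 2-fold were recovered, and 18 of 15718 unchanged genes passed the adjusted p. The changed genes were drawn only from genes above a minimum level, so recovery of low genes was not tested. Alternatives were RLE scaling, no filter, a replicate block, DESeq2 1.42.0, limma-voom (limma 3.58.1), fewer libraries and leaving out each library. Some genes are not reported here.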

Additional observations from a re-analysis of the deposited data

Results flagged for a closer look

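The genes below have a difference between the cytokines in KPC.2 that departs, by a test of that departure in edgeR, from the mean of the other 7 lines or from Panc02.3; the rule that chose them takes the largest departures, so their size is no separate evidence. Against the mean of the other lines, the difference was more positive for Cd74 (7.11), H2-DMa (5.90), Tubb3 (5.27), the secreted Wnt modulator gene Dkk3 (4.78), Sema7a (4.68) and Wars (3.66). It was more negative for Rsad2 (−3.61), Trim30a (−3.20), Pde1b (−3.18), Ifit1 (−3.065), Cdh10 (−3.01) and Il1rn (−2.635). Dkk3 was at 1.12, 0.642 and 2.81 CPM with IFNb and at 7.12, 8.59 and 7.51 with IFNg in KPC.2, and the other lines ran from −5.28 in Panc02.3 to 1.05 in B16.1. The own difference of Pde1b in KPC.2 lost its call without the filter (−1.89), with the replicate block (−1.75) and without IFNg replicate 1 or 2 or IFNb replicate 1 or 2 (−2.04 to −1.47).

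Against Panc02.3 alone, the difference was more positive for Tubb3 (8.89), Dkk3 (8.19), Tubb2b (6.35) and the heat shock gene Hspa1a (6.21), and more negative for Mycl (−8.005), Mx2 (−7.74), the nucleotide kinase gene Cmpk2 (−7.32) and Ifit1 (−7.18). Of these 8, 6 had an empty group in Panc02.3, with counts over the IFNb and IFNg groups of 2 and 0 for Tubb3, 12 and 0 for Dkk3, 18 and 0 for Tubb2b, 12 and 0 for Hspa1a, 0 and 13 for Mycl and 0 and 3 for Cmpk2, so the size of their fitted departure depends on the prior count. Mx2 (200 and 1776 counts) and Ifit1 (1744 and 9028 counts) had counts in both groups. In KPC.2 itself, the difference of Hspa1a (0.91) lost its call under RLE scaling (0.88) and without any 1 library (0.84 to 0.95), and that of Mycl (−1.46) without IFNb replicate 2 (−1.30).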

How the results depend on the processing

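Over leaving out each of the 6 libraries, 649 to 758 genes separated the cytokines (776 with all), 424 to 471 higher with IFNg and 225 to 289 higher with IFNb, and 568 to 716 of the 776 stayed called. RLE scaling gave 480 and 304, no filter 525 and 327, DESeq2 441 and 309, the 9 KPC.2 libraries 459 and 254, and the 6 with a cytokine 456 and 230. With the replicate block the counts were 463 and 252; it also moved genes lowered by IFNb against NS from 17 to 11, and 2 of 3 IFNb libraries correlated best with the IFNg library of their own number. limma-voom gave 1284 genes, 497 and 787, with the median of all genes at −0.0587; over genes with at least 20 counts, chosen after seeing the data, it gave 492 and 290. Genes lowered by IFNb against NS were 48 without the filter and 32 by voom. Departures from the other 7 lines were 930 by voom (406 and 524) in place of 393 (268 and 125), and negative ones from Panc02.3 were 2425 in place of 1255. Btnl2 and Mmp2 turned to −1.60 (−1.599) each by voom. Of 562 named or listed genes, 443 kept their call under every alternative that tested them (DESeq2 tested 543, the 9-library fit 493 and the 6-library fit 484), and leaving out IFNb replicate 2 lost the most calls (51). The cause of these shifts was not tested. IFNb replicate 3 limits the depth of low genes with IFNb, where the floor is 0.335 CPM against 0.136 with IFNg.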

Other observations

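Schlafen and Ly6 family genes rose with both cytokines against NS in 11 of 13, and between the cytokines 5 were higher with IFNg and 3 with IFNb, so that close relatives ranked the cytokines in opposite order. Slfn2, which keeps lymphocytes quiescent, was at 201, 202 and 193 CPM with IFNg and 138, 135 and 109.5 with IFNb (0.58 ± 0.10), while Slfn9 was at 88.7, 86 and 98.2 CPM with IFNg and 126, 127 and 114 with IFNb (−0.45 ± 0.09). Neither pair of groups overlapped, and in NS Slfn2 was at 27.9 ± 3.39 CPM and Slfn9 at 23.8 ± 0.939.

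Of 12 serpins, 6 were higher with IFNg and 3 with IFNb, and without IFNb replicate 2 these were 4 and 1. Serpina3f was at 88.1, 108 and 93.8 CPM with IFNg and had no count with IFNb or in NS, at least 285-fold higher, and Serping1, the inhibitor of complement C1, was at 9.41, 12.5 and 10.6 CPM with none in the other groups, at least 31.9-fold higher. Of 15 mesenchymal genes, 4 were higher in each direction; the smooth muscle actin gene Acta2 was at 16.8, 15.8 and 17.3 CPM with IFNg and 2.53, 1.5 and 2.81 with IFNb (3.02 ± 0.34).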
